A study of Mus musculus with 15 samples.

Results

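The genes described here encode 8 proteins with a bromodomain, a fold that binds acetylated lysine and so reads acetylation on histones. Brd2 and Brd3 belong to the bromodomain and extra-terminal (BET) family, and Brd1, Brd7, Brd8, Brd9, Baz1a and Baz2b do not. They were chosen by symbol: every probe set of the array annotated with one of these symbols and with no other gene was a member. This gave 26 probe sets of 45037, 6 for the BET members and 20 for the others, and the 8 genes are among 18193 with a probe set of their own. After probe sets near background were left out, 16 of the 26 were tested, 5 of them BET.

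BET proteins carry a pair of bromodomains and an extra-terminal domain, bind acetylated chromatin at promoters and enhancers, and help recruit the machinery that releases paused RNA polymerase II. ABBV-075 (mivebresib) is a small molecule that occupies the acetyl-lysine pocket of BET bromodomains and displaces these proteins from chromatin. In blood, BET inhibitors are known for lowering inflammatory gene expression in leukocytes and for thrombocytopenia as a side effect. The non-BET members belong to other machines, such as acetyltransferase complexes and chromatin remodellers.

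The study measured total RNA from whole blood of 15 mice on Affymetrix arrays, in 3 groups of 5 that received vehicle, a 1 mg/kg dose of ABBV-075 or a 5 mg/kg dose, and the blood was drawn 6 h later. The strain, sex and age of the mice and the route of dosing are not given in the sources used here, and 1 array was made per mouse. Values are probe set intensities, quantile normalised here so that the 15 arrays share 1 distribution, with values under a floor of 16 set to 16, and differences are on the log2 scale. The question of the series, per its title, was which blood transcripts respond to ABBV-075.

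Before normalisation the arrays differed in brightness. Their median intensities ran from 11.6 to 15.1 in vehicle, from 3.61 (replicate 1) to 25.4 (replicate 4) at 1 mg/kg and from 7.61 to 19.3 at 5 mg/kg. Correlations between pairs of arrays lay between 0.703 and 0.923. The arrays give no depth, so their number limits the precision, and the median standard error of a difference was 0.283 on the log2 scale. The tissue label was set beside marker lists of 7 blood cell types, and in no list was a matched marker at the floor on every array. That asks only for 1 array above the floor, so it is a weak check. Above the floor on all 15 arrays were 3 of 8 matched neutrophil markers, 5 of 9 monocyte markers and 4 of 4 erythroid markers, of 8 listed for erythroid cells. A difference in whole blood cannot tell more RNA per cell from a change in the share of the cells that express the gene, in either direction.

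RefSeq gives 3 transcription start sites for Brd2 on the minus strand of chromosome 17 in GRCm38.p6. The 250 bases upstream of each are shown because only Brd2 had a probe set with a limma adjusted p under 0.05 at 5 mg/kg. The annotation of the probe sets names no start site, so the windows are the candidate promoters of what was measured. Capitals mark a GC box (GGGCGG on either strand). The first is chr17:34122608-34122857, the second chr17:34121748-34121997 and the third chr17:34119901-34120150, each written 5' to 3' on the strand of the gene.
Brd2 start 1: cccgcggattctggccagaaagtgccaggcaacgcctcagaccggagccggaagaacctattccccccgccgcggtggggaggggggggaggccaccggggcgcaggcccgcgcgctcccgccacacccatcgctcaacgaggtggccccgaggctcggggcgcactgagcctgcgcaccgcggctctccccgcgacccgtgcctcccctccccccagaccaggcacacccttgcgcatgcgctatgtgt
Brd2 start 2: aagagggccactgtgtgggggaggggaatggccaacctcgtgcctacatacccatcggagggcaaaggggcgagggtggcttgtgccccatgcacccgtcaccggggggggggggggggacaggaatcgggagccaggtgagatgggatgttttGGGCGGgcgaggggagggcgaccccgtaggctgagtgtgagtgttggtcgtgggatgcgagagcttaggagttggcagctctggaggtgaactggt
Brd2 start 3: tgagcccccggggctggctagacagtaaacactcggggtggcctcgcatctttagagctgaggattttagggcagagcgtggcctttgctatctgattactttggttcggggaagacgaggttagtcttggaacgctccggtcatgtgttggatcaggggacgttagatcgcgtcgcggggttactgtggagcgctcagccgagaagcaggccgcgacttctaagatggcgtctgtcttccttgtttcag

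The 3 windows differed in composition. The first held 27 CpG dinucleotides and was 73.6% G or C, the second held 12 and was 65.2%, and the third held 18 and was 56.4%, against a median of 6 CpG over 32851 windows of the same length. The window upstream of the single listed Brd3 start, chr2:27475399-27475648, held 37 CpG dinucleotides and was 73.2% G or C. The search covered 4 motifs on both strands, and no motif contains another. A GC box was in the second Brd2 window and in the Brd3 window, and in 32.7% of all windows. An E-box (CACGTG, in 6.02% of all windows), a CCAAT box (CCAAT, in 33.8%) and a TATA box (TATAAA, in 12.4%) were in none of these 4 windows. These matches describe the letters of the windows and no more.

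Brd2 was the only member with a probe set past the threshold at 5 mg/kg against vehicle. BET protein BRD2 binds acetylated histone H4 and is known for coupling chromatin acetylation to transcription of cell cycle genes. Its brighter probe set, 1437210_a_at (Entrez 14312), had normalised intensities of 120, 164, 89.2, 164 and 111 in vehicle, of 206, 226, 163, 250 and 134 at 1 mg/kg, and of 246, 367, 303, 374 and 245 at 5 mg/kg. All 5 arrays at 5 mg/kg lay above all 5 vehicle arrays, while the arrays at 1 mg/kg overlapped both other groups. At 5 mg/kg the mean log2 intensity was 8.24 ± 0.30, against 6.98 ± 0.38 in vehicle (SD, n = 5 each). The difference was 1.26 ± 0.23 (SE) on the log2 scale, a fold of 2.39 with a 95% interval of 1.70 to 3.37, and passed the threshold of 0.05 (limma, Benjamini-Hochberg adjusted p = 0.0447 over all 24273 tested probe sets, rank 31 by p). The fold held in size but the call did not: over 30 other settings the difference ran from 1.13 to 1.40, and the limma adjusted p was over 0.05 in 19 of them.

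**Figure D1:**
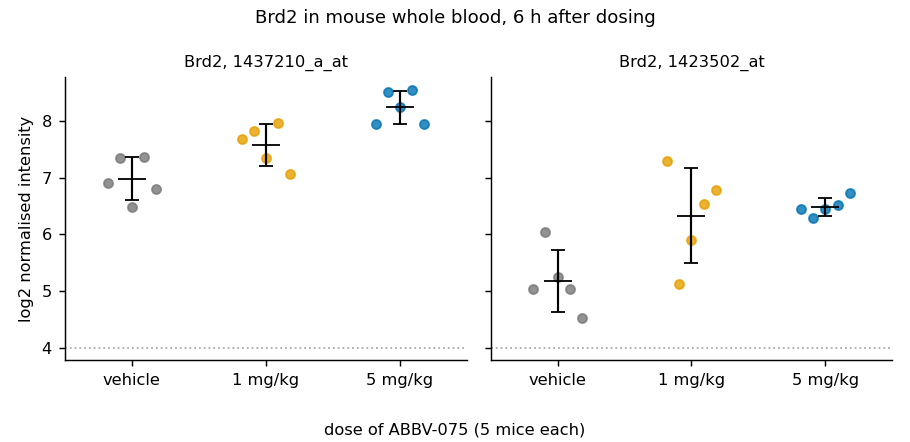
The vertical axis is the log2 normalised intensity of each Brd2 probe set and the horizontal axis the dose of ABBV-075; points are the 15 arrays, 5 a group, bars are the mean with SD, and the dotted line is the floor of 16. At 5 mg/kg both probe sets lie above all vehicle arrays, with means of 8.24 and 6.48 at 5 mg/kg against 6.98 and 5.17 in vehicle.

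At 1 mg/kg the same Brd2 probe set averaged 7.58 ± 0.36 on the log2 scale (SD, n = 5), between the 2 other groups. Its difference from vehicle was 0.60 ± 0.23 (SE) with a 95% interval of 0.11 to 1.09, which did not pass the threshold (limma adjusted p = 0.828). The difference between 5 mg/kg and 1 mg/kg was 0.66 ± 0.23 (SE) with an interval of 0.17 to 1.15, and it did not pass either (limma adjusted p = 0.474). The means stood in the order of the doses after normalisation, with neither step past the threshold. Before normalisation the value on replicate 1 at 1 mg/kg, the array of lowest median intensity, was 52.6. That on replicate 4, the array of highest median intensity, was 497. The vehicle values ran from 72.9 to 150.

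The dimmer Brd2 probe set, 1423502_at, had normalised intensities of 32.8, 65.4, 38.0, 32.8 and 23.0 in vehicle, of 158, 34.9, 59.8, 92.7 and 110 at 1 mg/kg, and of 86.9, 77.8, 87.2, 91.2 and 106 at 5 mg/kg. Again all 5 arrays at 5 mg/kg were above all vehicle arrays, and they lay close together, with an SD of 0.16 on the log2 scale against 0.55 in vehicle. The arrays at 1 mg/kg were the most scattered, with an SD of 0.84, and 2 of them, replicates 2 and 3, fell within the vehicle range. The highest, replicate 1, was the array of lowest median intensity. Its value before normalisation was 40.5, against 21.1 to 61.5 in vehicle. The difference at 5 mg/kg was 1.31 ± 0.35 (SE, 95% interval 0.57 to 2.04), close to that of the brighter probe set, but it did not pass the threshold (limma adjusted p = 0.217). The lower dose gave 1.15 ± 0.35 (SE, interval 0.42 to 1.89, limma adjusted p = 0.703), and 5 mg/kg differed from 1 mg/kg by 0.15 ± 0.35 (interval -0.58 to 0.89, limma adjusted p = 0.931). The probe sets of Brd2 had near-equal differences at 5 mg/kg and unequal ones at 1 mg/kg, whose intervals overlap; the difference between the probe sets was not tested. Across the 15 arrays the 2 probe sets correlated at r = 0.576, a description, since both are read from the same arrays.

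Other features of the arrays also differed between the dose groups. The signal of the 18S ribosomal RNA control, in log2 intensity, was 11.19 ± 0.94 in vehicle blood, 9.97 ± 0.43 after 1 mg/kg and 9.42 ± 0.42 after 5 mg/kg (SD, n = 5 each). With 18S as a covariate the difference of Brd2 1437210_a_at between 5 mg/kg and vehicle was 1.40 ± 0.38 (SE, limma adjusted p = 0.442). When the pair of vehicle arrays with the highest 18S signal was left out it was 1.36 ± 0.28 (SE, limma adjusted p = 0.127). The difference was as large in both, and in neither was it called, where 0% and 0.0299% of all tested probe sets were. The 18S ranges of the 2 groups did not overlap, at 10.24 to 12.31 in vehicle and 8.83 to 9.88 at 5 mg/kg. Neither setting can therefore tell 18S from dose. With the same covariate the 14 tested probe sets of the other members lay between -0.92 ± 0.46 (SE) for Baz2b 1448007_at and 1.02 ± 0.84 for Brd8 1451137_a_at, which were -0.02 and 0.19 without it. None of the 14 passed in limma (smallest adjusted p = 0.617, and 0 with an unadjusted p under 0.05). Each array was also left out in turn, and the call was kept in 3 of 15 cases (leaving out vehicle replicate 2, or replicate 4 or 5 of the 1 mg/kg group). In the 12 other cases the limma adjusted p lay between 0.0515 and 0.144, and the difference between 1.13 and 1.35.

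**Figure D2:**
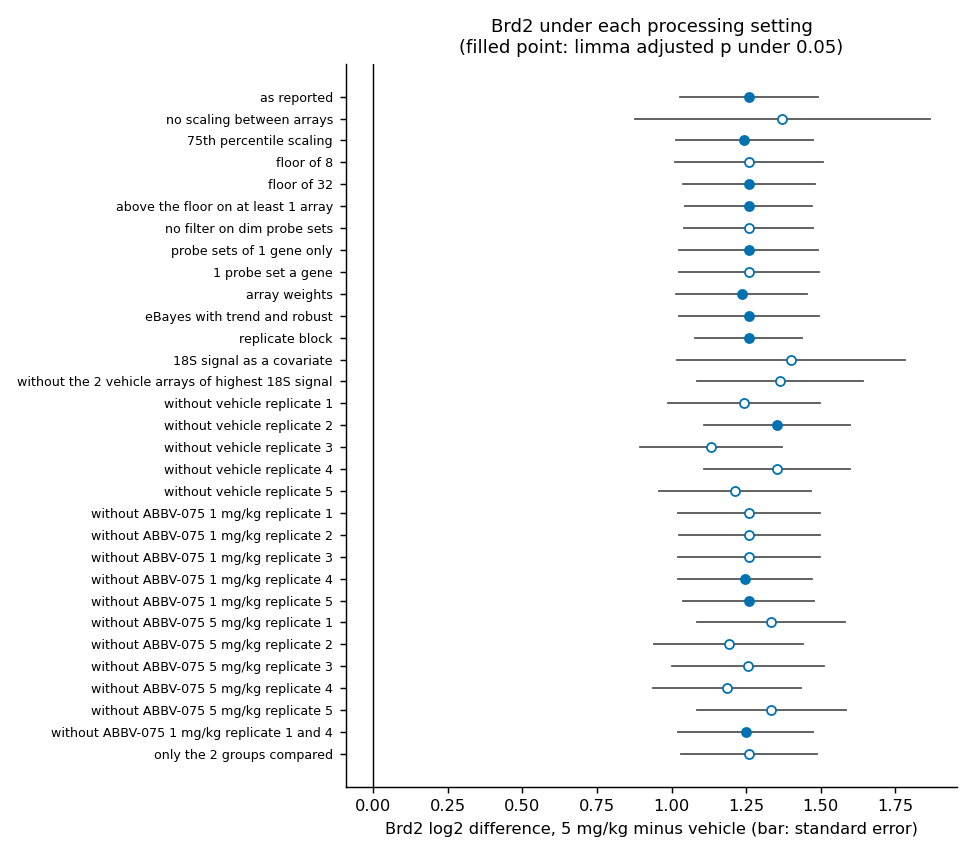
The horizontal axis is the log2 difference of Brd2 1437210_a_at, 5 mg/kg minus vehicle, with its standard error, as reported and under 30 other settings; filled points have a limma adjusted p under 0.05. The differences lie between 1.13 and 1.40, and 19 of the 30 points are open.

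Summed levels of cell type markers also differed between 5 mg/kg and vehicle for monocytes. The summed normalised intensity of 9 monocyte markers, of 10 listed, ran from 2961 to 4340 at 5 mg/kg and from 5067 to 8115 in vehicle, with no overlap. At 1 mg/kg it ran from 3707 to 6578 and overlapped both. The sum of 9 B cell markers of 10 ran from 2093 to 4416 at 5 mg/kg, against 1122 to 2813 in vehicle, and overlapped. At 1 mg/kg it ran from 581 to 2370. For 8 of 10 T cell markers the sums were 794 to 1913 at 5 mg/kg and 782 to 1241 in vehicle. Neutrophil markers (8 of 10) summed to 878 to 3563 at 5 mg/kg and to 2343 to 3591 in vehicle, and 7 of 8 NK cell markers to 416 to 1722 and 591 to 1255 in those groups. Platelet markers (8 of 8) summed to 7553 to 11005 at 5 mg/kg and to 5851 to 13212 in vehicle, and 4 of 8 erythroid markers to 12190 to 14444 and 14118 to 15185. In limma, 0 of these markers passed the threshold at 5 mg/kg, and their part in the difference of Brd2 was not tested.

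Brd3, the other BET member, did not pass the threshold. BRD3 is known from mouse erythroid cells as a partner of acetylated GATA1. Its brightest probe set, 1460328_at (Entrez 67382), had normalised intensities of 33.3, 46.0, 37.0, 58.3 and 31.3 in vehicle, of 83.4, 36.8, 43.7, 45.3 and 16 (the floor) at 1 mg/kg, and of 35.4, 25.6, 49.0, 49.1 and 23.3 at 5 mg/kg. The groups overlapped throughout, and both the highest and the lowest value were at 1 mg/kg. The highest was on replicate 1, the array of lowest median intensity. Before normalisation it was 21.7, against 28.8 to 47.8 in vehicle. The difference at 5 mg/kg was -0.20 ± 0.36 (SE) with a 95% interval of -0.97 to 0.56 (limma adjusted p = 0.944), an interval that does not reach the difference of 1.26 measured for Brd2. The lower dose gave -0.02 (interval -0.78 to 0.75, limma adjusted p = 0.997).

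The remaining Brd3 probe sets were dim. Probe set 1436960_at was above the floor on 5 vehicle arrays, 2 arrays at 1 mg/kg and 4 at 5 mg/kg. Its difference from vehicle was -0.52 at 1 mg/kg (interval -1.13 to 0.09) and 0.29 at 5 mg/kg (interval -0.32 to 0.90). Between the doses it was 0.81 ± 0.29 (SE), with an unadjusted p of 0.012 in limma and an adjusted p of 0.474. Probe set 1450902_at was above the floor on 4, 1 and 2 arrays in order of dose and differed from vehicle by -0.36 at 1 mg/kg and -0.23 at 5 mg/kg. Probe set 1423199_at was above the floor on 3 arrays in all, 1 at 1 mg/kg and 2 at 5 mg/kg, and was not tested. The Brd3 probe sets thus did not share a direction at 5 mg/kg, with 1 difference above 0 and 2 below among the 3 tested.

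**Figure D3:**
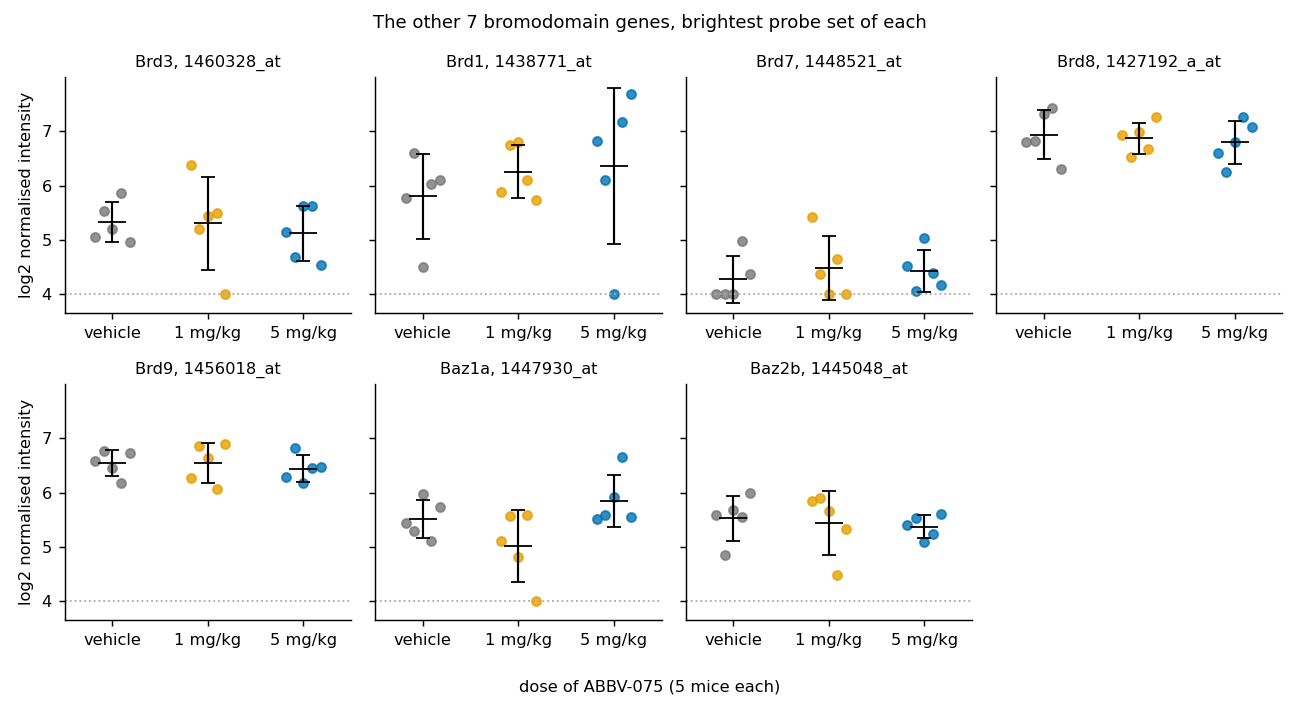
The vertical axis is the log2 normalised intensity of the highest-mean probe set of each of the 7 other members and the horizontal axis the dose of ABBV-075; points are arrays, 5 a group, bars are the mean with SD, and the dotted line is the floor of 16. The 3 groups overlap in every panel.

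Brd1 and Brd8 belong to histone acetyltransferase complexes. BRD1 is a scaffold of the HBO1 and MOZ acetyltransferase complexes. Its probe set with the highest mean, 1438771_at (Entrez 223770), had normalised intensities of 54.4, 97.0, 22.7, 65.0 and 68.6 in vehicle, of 59.2, 107, 112, 68.8 and 53.4 at 1 mg/kg, and of 114, 69.1, 16 (the floor), 144 and 207 at 5 mg/kg. At 5 mg/kg, 3 of the 5 arrays were above every vehicle array and 1, replicate 3, was below them all. The difference at 5 mg/kg was 0.56 ± 0.56 (SE, interval -0.62 to 1.75, limma adjusted p = 0.877), the widest interval of the members that were tested at that dose. The lower dose gave 0.46 (interval -0.73 to 1.64). Without replicate 3 of the 5 mg/kg group the difference at 5 mg/kg was 1.15 (limma adjusted p = 0.462). The other tested probe set of Brd1, 1434821_at, differed from vehicle by 0.05 at 1 mg/kg and 0.28 at 5 mg/kg (interval -0.27 to 0.84), and 1447420_at and 1456692_at were at the floor on all 15 arrays.

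BRD8 is a subunit of the TIP60 acetyltransferase complex. Brd8 probe set 1427192_a_at (Entrez 78656) had normalised intensities of 112, 113, 160, 173 and 79.5 in vehicle, of 122, 92.3, 126, 102 and 154 at 1 mg/kg, and of 97.5, 76.3, 112, 154 and 134 at 5 mg/kg. The groups overlapped, with the lowest array at 5 mg/kg and the highest in vehicle. The difference at 5 mg/kg was -0.14 ± 0.25 (SE, interval -0.67 to 0.39, limma adjusted p = 0.944) and at 1 mg/kg -0.06. Of its 3 other tested probe sets, 1427193_at differed by -0.46 at 5 mg/kg (interval -1.0 to 0.09, limma adjusted p = 0.722), the lowest value and the smallest adjusted p of any member other than Brd2. This probe set was dim, above the floor on 3 vehicle arrays, 4 at 1 mg/kg and 2 at 5 mg/kg. Probe sets 1451137_a_at and 1452350_at both differed by 0.19 at 5 mg/kg, and 1429526_at and 1456351_at were at the floor on all arrays.

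Brd7, Brd9, Baz1a and Baz2b are linked to chromatin remodelling. BRD7 is a subunit of the PBAF form of SWI/SNF and BRD9 of its non-canonical form. Brd9 probe set 1456018_at (Entrez 105246), the only one of its gene, had normalised intensities of 96.2, 109, 87.9, 72.9 and 107 in vehicle, of 77.6, 116, 100, 67.3 and 119 at 1 mg/kg, and of 78.5, 114, 72.1, 88.0 and 88.4 at 5 mg/kg. These groups overlapped, and the intervals were the narrowest among the highest-mean probe sets, with a difference of -0.11 ± 0.21 (SE, interval -0.54 to 0.33, limma adjusted p = 0.951) at 5 mg/kg and an interval of -0.44 to 0.44 at 1 mg/kg.

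Brd7 was close to background. Its probe set 1448521_at (Entrez 26992) had normalised intensities of 16, 16, 16, 31.5 and 20.8 in vehicle, of 42.7, 20.6, 16, 25.1 and 16 at 1 mg/kg, and of 22.9, 16.5, 32.9, 20.9 and 18 at 5 mg/kg. It was above the floor of 16 on 2 vehicle arrays, 3 at 1 mg/kg and 5 at 5 mg/kg. Its differences were 0.22 at 1 mg/kg and 0.16 ± 0.29 (SE, interval -0.46 to 0.78, limma adjusted p = 0.945) at 5 mg/kg. Both rest in part on values set to the floor. The highest value was on replicate 1 at 1 mg/kg, the array of lowest median intensity. Before normalisation it was 11.4, against 7.35 to 26.2 in vehicle. With 1 array left out the difference at 1 mg/kg ran from 0.001 to 0.40. The other Brd7 probe set, 1436469_at, was at the floor on all 15 arrays.

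BAZ1A, also known as ACF1, is the partner of the ISWI ATPase in the ACF and CHRAC remodellers. Baz1a probe set 1447930_at (Entrez 217578) had normalised intensities of 43.7, 39.2, 63.1, 34.7 and 53.1 in vehicle, of 34.5, 47.5, 28.2, 48.2 and 16 (the floor) at 1 mg/kg, and of 45.7, 48.2, 60.7, 101 and 46.9 at 5 mg/kg. The highest array was replicate 4 at 5 mg/kg, and the other 4 of that group lay within the vehicle range. The difference was -0.50 at 1 mg/kg (interval -1.15 to 0.16) and 0.34 ± 0.31 (SE, interval -0.32 to 0.99, limma adjusted p = 0.866) at 5 mg/kg. Between the doses it was 0.83 ± 0.31 (SE), with an unadjusted p of 0.0163 in limma and an adjusted p of 0.482. The second Baz1a probe set, 1433599_at, was above the floor on 2 arrays, both at 5 mg/kg, and was not tested.

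BAZ2B is a BAZ-family protein that also pairs with ISWI ATPases. Baz2b probe set 1445048_at (Entrez 407823) had normalised intensities of 48.4, 28.9, 51.1, 46.6 and 63.5 in vehicle, of 57.8, 60.0, 50.9, 22.3 and 40.3 at 1 mg/kg, and of 42.1, 46.1, 34.0, 37.7 and 48.6 at 5 mg/kg. All 5 arrays at 5 mg/kg lay within the vehicle range. The difference was -0.16 ± 0.27 (SE, interval -0.74 to 0.41, limma adjusted p = 0.939) at 5 mg/kg and -0.08 at 1 mg/kg. Probe set 1448007_at differed by -0.02 at 5 mg/kg (interval -0.72 to 0.67), and the 3 remaining Baz2b probe sets were at the floor on all arrays.

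**Figure D4:**
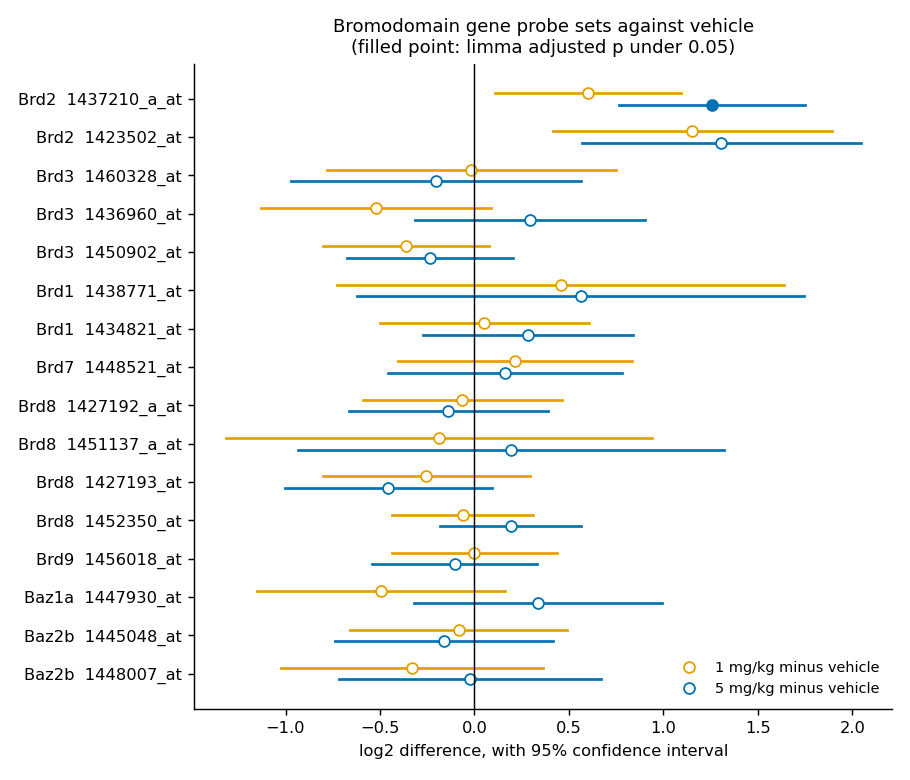
The horizontal axis is the log2 difference of each tested member probe set from vehicle with its 95% confidence interval from limma, for 1 mg/kg (orange) and 5 mg/kg (blue), 5 arrays a group; the filled point passed the threshold. The intervals of both Brd2 probe sets lie above 0 at each dose and those of the 14 others include 0.

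Counted together, 1 of the 16 tested member probe sets passed the threshold at 5 mg/kg against vehicle, where 0.136% of all tested probe sets did. Groups that did not overlap were found for 2 of the 16, both of Brd2, where 2.44% of all tested probe sets showed this. The median difference of the 16 was 0.18, with 9 above 0 and 7 below, against a median of -0.01 over all tested probe sets. Without Brd2 the 14 others split 7 to 7 around 0, from -0.46 to 0.56, with a median of 0.07 and no limma adjusted p below 0.722. The 95% intervals of the 14 together reached from -1.0 to 1.75, so a difference the size of that of Brd2 was within the interval for some of them.

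At 1 mg/kg against vehicle, 0 of the 16 passed the limma threshold, where 0.00824% of all tested probe sets did, and 2 had an unadjusted p under 0.05, both of Brd2, where 5.80% of all tested probe sets had one. None of the 16 had groups without overlap, where 0.865% of all did. Their median difference was -0.06, with 5 above 0 and 11 below. Between 5 mg/kg and 1 mg/kg, 0 of the 16 passed in limma, where 0% of all did, and 0 had groups without overlap, where 1.27% of all did. In that comparison 3 members had an unadjusted p under 0.05, Brd2 1437210_a_at, Brd3 1436960_at and Baz1a 1447930_at, all higher at 5 mg/kg. Of all tested probe sets, 8.66% had an unadjusted p under 0.05 there, 1502 of them higher at 5 mg/kg and 600 lower.

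Among the BET probe sets, those of Brd2 alone were called or had groups without overlap in these 3 comparisons. Among the 5 tested BET probe sets the median difference at 5 mg/kg was 0.29, with 1 called, and among the 11 non-BET probe sets it was 0.16, with 0 called, 6 above 0 and 5 below. The medians at 1 mg/kg were -0.02 for BET and -0.06 for non-BET probe sets. The 3 tested Brd3 probe sets had a median of -0.20 at 5 mg/kg. The 5 BET probe sets come from 2 genes and are not replicates, and the difference between the families was not tested.

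**Figure D5:**
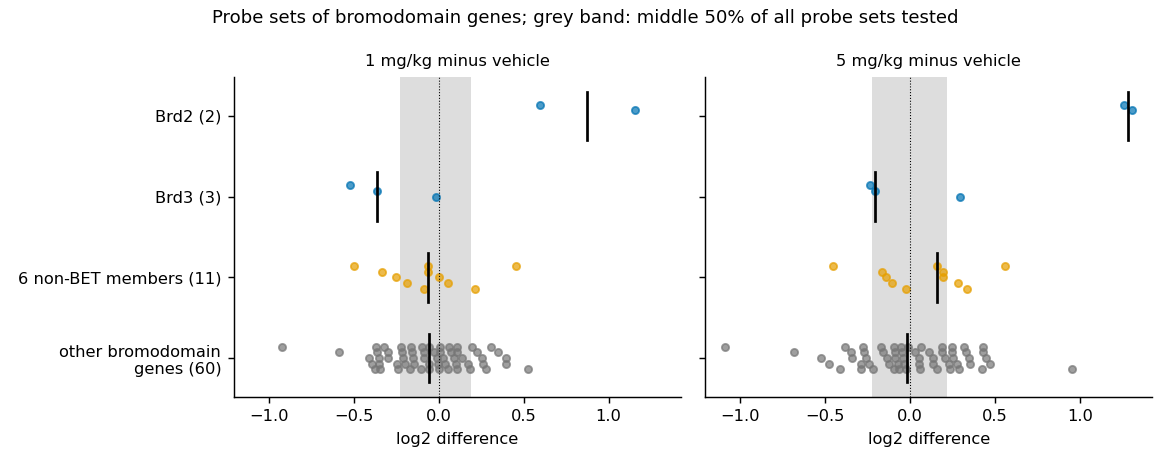
The horizontal axis is the log2 difference from vehicle, 1 point a tested probe set, for the lower dose (left) and the higher dose (right); black lines are medians and the grey band holds the middle 50% of all tested probe sets. At 5 mg/kg the Brd2 probe sets stand at 1.26 and 1.31, to the right of every other bromodomain probe set shown.

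A list of 31 further bromodomain genes gave a wider view of the family. Of these, 29 had a probe set, with 60 tested probe sets in all. In limma 0 of the 60 passed at 5 mg/kg against vehicle, where 0.136% of all tested probe sets did, and 2 had an unadjusted p under 0.05, where 7.96% of all did. They were spread around 0, 29 above and 31 below, with a median of -0.02. The range ran from -1.09 for a probe set of Zmynd8 (1426614_at, limma adjusted p = 0.158), a chromatin reader, to 0.96 for one of Kmt2a (1452377_at, limma adjusted p = 0.145), a histone H3 lysine methyltransferase. Other tested probe sets of Zmynd8 stood at -0.12, -0.48 and -0.35, and that of Kmt2a, its brighter one, at -0.04. None of the 60 passed in limma at 1 mg/kg (median -0.06, 1 unadjusted p under 0.05, against 5.80% of all), and between the doses 0 passed (median 0.08, 4 unadjusted p under 0.05, against 8.66% of all). One gene of the list, Brdt, encodes a testis-specific BET protein, and its tested probe set, 1444667_at, differed from vehicle by 0.52 at 1 mg/kg and 0.27 at 5 mg/kg (limma adjusted p at 5 mg/kg = 0.877).

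Taking the probe set of highest mean for each of the 28 genes where it was tested, the highest differences at 5 mg/kg were those of Atad2, an AAA+ ATPase with a bromodomain (0.47 ± 0.24 SE, limma adjusted p = 0.661), Baz1b, a subunit of the WICH remodeller (0.45 ± 0.36, limma adjusted p = 0.829), and Taf1, the largest subunit of TFIID (0.43 ± 0.23, limma adjusted p = 0.686). The lowest were those of Smarca4, the BRG1 ATPase of SWI/SNF (-0.68 ± 0.36, limma adjusted p = 0.688), Kat2b, the PCAF acetyltransferase (-0.41 ± 0.25, limma adjusted p = 0.751), and Brwd1 (-0.29 ± 0.31, limma adjusted p = 0.889). Other tested probe sets of these genes gave other values. Those of Brwd1 stood at 0.42 and 0.35, that of Kat2b at 0.05, that of Atad2 at -0.01, that of Baz1b at 0.06 and that of Smarca4 at -0.17, so the values above belong to single probe sets. None of these 6 differences passed the threshold, and none was as far from 0 as that of Brd2.

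Over the 15 arrays, the log2 intensities of the other members had correlations of either sign with that of Brd2 1437210_a_at. Pearson's r was 0.373 for Baz1a, 0.314 for Brd7, 0.304 for Brd1 and 0.153 for Brd3, and -0.241 for Brd9, -0.247 for Brd8 and -0.342 for Baz2b. These values and those that follow are descriptions over arrays that also share dose and RNA sample, and carry no p.

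The 5 genes whose pattern was most like that of Brd2, among 12522 genes compared by Pearson's r over the 15 arrays (dose groups included), are named next. A gene chosen in this way shares the order of Brd2 over the groups by construction, so their differences are given as description. H2-K1, a class I histocompatibility heavy chain that lies, like Brd2, in the major histocompatibility complex, had r = 0.915 and a difference of 0.95 at 5 mg/kg (limma adjusted p = 0.158), from a probe set, 1450534_x_at, of a type that can match related transcripts. Hnrnpa2b1, an RNA-binding protein of splicing and RNA transport, had r = 0.892 and a difference of 0.99 (limma adjusted p = 0.101). Btbd10 had r = 0.889 and a difference of 0.81 (limma adjusted p = 0.246). Taf13, a TFIID subunit, had r = 0.862 and a difference of 1.43 (limma adjusted p = 0.158). Ncl, the nucleolar protein nucleolin, had r = 0.855 and a difference of 0.77 (limma adjusted p = 0.290).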

How the data were processed

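Total RNA from mouse whole blood was extracted with Qiazol and RNeasy and amplified with an Affymetrix 3' IVT kit into biotinylated cRNA, 200 ng per mouse, per the labels' protocols. The authors deposited 1 intensity per probe set and array on what the values, some of them negative, show to be a linear scale. How probe sets were summarised is not given in the sources used here. From 45101 rows, 64 control probe sets were left out, the arrays were quantile normalised, values under 16 were set to 16, and log2 was taken. Of the values, 52.7% were at this floor.

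Probe sets above the floor on at least 5 of 15 arrays (24273) were tested by limma (version 3.58.1 under R 4.3.3; lmFit, then eBayes, on all 15 arrays, two-sided, 12 residual and 3.94 prior degrees of freedom) with Benjamini-Hochberg adjustment over all of them, and the fit was tested on simulated data. The members, gene lists and tests were chosen with earlier results of these data known. Of the non-control probe sets, 34945 had 1 gene in the platform annotation, 932 several and 9160 none, and only the first kind was named. Every array is given for the highest-mean probe set of each member and for both Brd2 probe sets, the other bromodomain genes named are the 3 highest and 3 lowest at 5 mg/kg, plus the extremes of all their probe sets, which were chosen after their values were seen. The samples are different mice, so the p-values measure the spread between mice and arrays together. Replicate numbers did not pair the samples: same-numbered arrays of different groups had correlated deviations from -0.271 to 0.324, with 3 of 15 over 0.1. Alternatives covered the scaling, the floor, the filter, the probe sets, the model, the replicate block, the 18S signal and each array left out. Promoter windows are RefSeq's (GRCm38.p6). Part of the gene family is not reported here.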

Additional observations from a re-analysis of the deposited data

Results flagged for a closer look

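Every group of 5 arrays of a member probe set with at least 1 array above the floor was examined for an array standing apart from the other 4 (a gap over 0.71 of the group's range, Dixon's 95% value for 5 arrays). For normally distributed values not cut at a floor, chance alone would mark about 1 group in 20. A group with only 1 array above the floor is marked by construction, so that rate does not apply here. Of 51 groups, 5 held such an array, all in dim probe sets with 1 or 2 arrays above the floor of 16, so the rest of each group sat at or near the floor. At 1 mg/kg, Brd3 1423199_at stood at 5.78 on the log2 scale (54.9 in intensity) on replicate 1, with the other 4 arrays at the floor. Replicate 1 was the array of lowest median intensity. Before normalisation the value was 14.6 there and 17.9 on replicate 4. In the same group Brd3 1436960_at stood at 4.60 on replicate 2, Brd3 1450902_at at 4.01 on replicate 4 and Brd8 1452350_at at 4.01 on replicate 1. In vehicle, Brd8 1452350_at stood at 4.25 on replicate 1. None of these probe sets carried a call in limma.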

How the results depend on the processing

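The difference of Brd2 1437210_a_at between 5 mg/kg and vehicle kept its direction in all 30 alternatives (1.13 to 1.40 on the log2 scale), and its limma adjusted p ran from 0.0181 to 1.00. The number of member probe sets called at 5 mg/kg, 1 as reported, was 0 without scaling between arrays (adjusted p of Brd2 1.00, median of all probe sets 0.12), with a floor of 8 (0.0859), with no filter (0.0738), with 1 probe set a gene (0.0580), with 18S as a covariate (0.442), without the 2 vehicle arrays of highest 18S (0.127) and with only the 2 groups compared (0.0562). It was 0 to 1 when each array was left out. The cause was not tested. It stayed at 1 with 75th percentile scaling, a floor of 32 (0.0181), presence on at least 1 array, probe sets of 1 gene only, array weights (0.0220), eBayes with trend and robust options, and, chosen after seeing the data, without 1 mg/kg replicates 1 and 4 (0.0468). With the replicate number as a block it was also 1 (0.0244), and the block changed no other call among the members. At 1 mg/kg against vehicle and at 5 mg/kg against 1 mg/kg it was 0 in every alternative. The Brd2 probe set 1423502_at was called in none (1.14 to 1.63 at 5 mg/kg).

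Over all probe sets the count at 5 mg/kg against vehicle, 33 as reported, was 95 with array weights, 73 with a floor of 32, 11 with 1 probe set a gene, 7 without the 2 vehicle arrays, 4 without scaling, 0 with 18S as a covariate, and 15 to 41 with 1 array left out. At 1 mg/kg, where it was 2 (both lower), it ran from 0 to 10, the highest with a floor of 32, and between the doses, where it was 0, from 0 to 1. Signs changed in 13 of 451 values at 5 mg/kg and 37 of 451 at 1 mg/kg, in each case of members not called, with 12 and 8 of 16 probe sets keeping their sign throughout. Signal over background limits the rest: 10 of the 26 member probe sets were too dim to test, and 95% intervals of the members other than Brd2 reached 1.75.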
